A study of Mus musculus with 20 samples.

Results

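The 8 protein kinase C isoform genes described here are the conventional (cPKC) isoforms Prkca and Prkcb, the nPKC isoforms Prkcd, Prkce, Prkch and Prkcq, and the atypical (aPKC) isoforms Prkci and Prkcz. They were taken by their gene symbols, with earlier results of these data known, and the study had already listed Prkcb among its changed genes. All 8 were found among the 24421 genes of each of the 20 RNA-seq libraries. The samples were neocortex (NCX) and hippocampus (HP) of APP/APLP1/APLP2 cTKO mice and of control littermates, all 3 months old, and each of the 4 groups held 5 libraries. cTKO mice carried floxed alleles of App, Aplp1 and Aplp2 together with the transgene Camk2a-Cre, whose promoter directs Cre recombinase to excitatory neurons of the forebrain after birth, so that the other cell types of the tissue were not targeted. The control mice are labelled wild type, and the study describes them as littermates with the same floxed alleles and no Cre. Mice of both sexes on a C57BL/6 J and 129 hybrid background were used, and each mouse gave tissue of both regions.

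Protein kinase C isoforms are serine and threonine kinases that act downstream of receptors coupled to phospholipase C. Phospholipase C splits a membrane lipid into diacylglycerol and a messenger that releases calcium. Conventional isoforms need both calcium and diacylglycerol, nPKC isoforms need diacylglycerol but not calcium, and atypical isoforms need neither and are held in place by protein partners. In forebrain neurons these kinases are known for their part in synaptic plasticity, transmitter release and the setting of cell polarity.

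Every library was deep enough to measure all 8 genes. Total counts ranged from 12169474 to 25331954, and the lowest count of a member in any library was 52, for Prkch. App, Aplp1 and Aplp2 separated the genotypes without overlap in both regions, with log2 fold changes of -2.10, -1.92 and -1.61 in the neocortex and -1.78, -1.93 and -1.25 in the hippocampus for cTKO against control. In 2 cTKO libraries, neocortex library 5 and hippocampus library 4, the summed CPM (counts scaled to the size of the library) of 6 embryonic tissue markers, among them the embryonic globins Hba-x and Hbb-y, was 713 and 455, against 4.35 to 10.2 in the other 18 libraries. The genotype differences of all 8 isoforms are therefore also given without them. The 6 thalamic markers summed to 92.4 to 231 CPM, with Rora at 35.7 to 136 CPM and Gbx2 at or under 0.538 CPM. The 5 T cell markers summed to 0.894 to 2.57 CPM, most of it Lck, and Cd3e, Cd3g and Cd3d stayed at or under 0.316 CPM. The hippocampal libraries were told from the neocortical ones by dentate granule cell markers, which summed to 179 to 319 CPM in the hippocampus and to 14.1 to 22.5 CPM in the neocortex.

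The isoforms are spread over 8 chromosomes of the mouse genome (positions in GRCm38, which is mm10). Prkcb lies at chr7:122288751-122634402 on the plus strand, Prkca at chr11:107933387-108343928 on the minus strand, Prkcd at chr14:30595354-30626210 on the minus strand and Prkce at chr17:86167785-86657919 on the plus strand. Prkch lies at chr12:73584796-73778185, Prkcq at chr2:11172108-11301222 and Prkci at chr3:30995747-31052959, all on the plus strand, and Prkcz at chr4:155260129-155361361 on the minus strand. Only Prkca shared exon bases with another counted gene, 30 bases with Apoh on the opposite strand. Reads were summed over each gene, so the counts do not separate the splice forms of Prkcb, nor the transcripts that begin at different starts of Prkcz.

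Prkcb was the isoform called between the genotypes, and the count of Prkcz sums over several starts. The windows around the start of Prkcb and the first and second starts of Prkcz are therefore shown. Each is the RefSeq sequence of GRCm38.p6 from 250 bases before to 50 bases after an annotated start, read 5′ to 3′ on the gene's strand. Capitals mark matches, on either strand, to the CRE TGACGTCA, the GC box GGGCGG or the octamer ATGCAAAT. The matches do not overlap each other in the windows printed. The Prkcb window (chr7:122288875-122289174, plus strand) holds a GC box at base 163 and the octamer at base 181. The first start of Prkcz (chr4:155361379-155361678, minus strand) has 3 GC boxes and no CRE. Its second start lies inside the gene (chr4:155345740-155346039, minus strand) and has a CRE at base 244 and no GC box. A Prkcz transcript from an internal start, which encodes the free catalytic domain called PKMzeta, is known in brain, and the sequence table does not say which start it uses.
Prkcb, start: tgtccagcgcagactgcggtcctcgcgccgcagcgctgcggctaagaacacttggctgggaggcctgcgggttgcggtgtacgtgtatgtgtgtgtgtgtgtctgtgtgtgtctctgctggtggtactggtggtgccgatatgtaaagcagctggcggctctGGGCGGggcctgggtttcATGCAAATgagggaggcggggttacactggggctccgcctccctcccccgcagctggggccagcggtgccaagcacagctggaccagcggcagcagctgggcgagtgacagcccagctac
Prkcz, first start: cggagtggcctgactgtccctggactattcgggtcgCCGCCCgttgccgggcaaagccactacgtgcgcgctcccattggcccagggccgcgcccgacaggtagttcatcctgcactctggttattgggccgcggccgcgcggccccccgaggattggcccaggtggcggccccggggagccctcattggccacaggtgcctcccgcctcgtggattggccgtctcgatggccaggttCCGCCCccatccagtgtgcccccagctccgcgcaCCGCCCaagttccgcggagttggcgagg
Prkcz, second start: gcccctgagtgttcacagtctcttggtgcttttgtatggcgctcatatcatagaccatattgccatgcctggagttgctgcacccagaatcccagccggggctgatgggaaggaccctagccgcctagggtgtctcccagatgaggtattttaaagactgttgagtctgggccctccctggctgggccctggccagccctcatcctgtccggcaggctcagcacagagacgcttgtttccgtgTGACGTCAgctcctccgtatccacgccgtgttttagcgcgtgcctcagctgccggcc
Over all 32851 such windows of the mouse genome, 1.79% hold the CRE, 35.7% the GC box and 1.74% the octamer. These matches are a description of the letters, and binding was not measured. Windows were found for 6 of the 8 genes and not for Prkce and Prkch.

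Prkcb was the most abundant isoform in every group, and Prkce was next. Levels of different genes are compared as CPM per kb of exon (mean ± SD, n = 5). In control neocortex, Prkcb stood at 213 ± 10.1, Prkce at 75.9 ± 1.14, Prkcz at 39.4 ± 1.11 and Prkca at 32.8 ± 0.997, with Prkci between 14.4 and 15.5 CPM per kb. The remaining 3, all nPKC isoforms, were far lower, with Prkcq at 1.81 ± 0.216, Prkcd at 1.74 ± 0.313 and Prkch at 0.648 ± 0.0966 CPM per kb. In control hippocampus the order began with Prkcb at 170 ± 12.4 and Prkce at 109 ± 5.78 CPM per kb, and Prkca, at 43.3 ± 5.44, stood above Prkcz, at 32.6 ± 1.88. Prkci followed at 12.8 ± 0.517, Prkcd at 2.82 ± 0.247, Prkcq at 2.08 ± 0.298 and Prkch at 0.476 ± 0.0744 CPM per kb. Neighbours in this order did not overlap between libraries in either control group, except Prkcq and Prkcd. In cTKO neocortex the order was that of control neocortex, with Prkcb at 168 ± 6.56 and Prkce at 80.6 ± 10.1 CPM per kb. In cTKO hippocampus the libraries of Prkcb, at 129 ± 18.3, and of Prkce, at 121 ± 5.58 CPM per kb, overlapped, as did those of Prkca, at 42.1 ± 7.40, and Prkcz, at 29.5 ± 2.87.

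**Figure D1:**
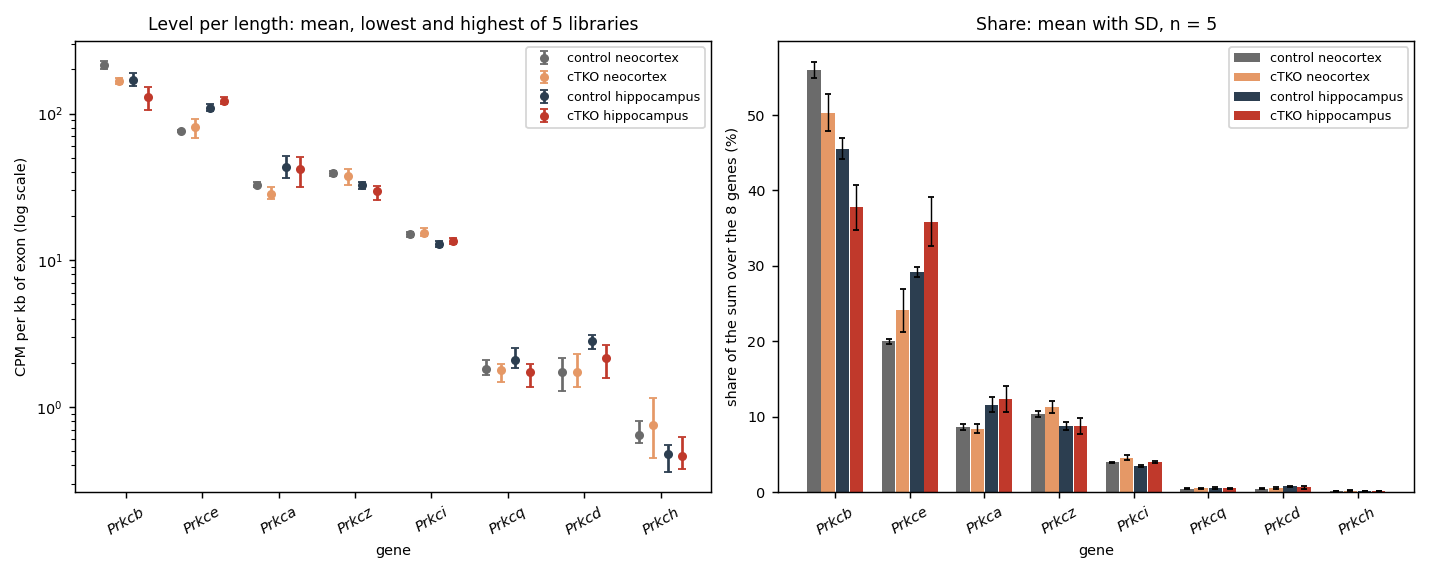
Level of each isoform per kb of exon (left, log scale, points are means and bars span the lowest to the highest of 5 libraries) and its share of the sum over the 8 genes (right, percent, bars are means with SD, n = 5) in the 4 groups. Prkcb and Prkce lead in every group, and their bars come closest in cTKO hippocampus, where the shares are 37.8% and 35.9%.

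By class, the conventional isoforms made up 64.6% ± 0.814 of the sum over the 8 genes in control neocortex and 57.1% ± 1.35 in control hippocampus. The nPKC isoforms made up 21.1% ± 0.374 and 30.6% ± 0.770, nearly all of it Prkce, and the atypical isoforms 14.3% ± 0.482 and 12.2% ± 0.654. The exon lengths used are those of all annotated transcripts. With the lengths of the basic transcript set, chosen after seeing the data, the order of the 8 genes was the same in each group, while the share of Prkcb in control neocortex was 69.5% in place of 55.9% ± 1.07.

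Loss of the APP family was compared with control first for the conventional isoforms. Prkcb stood below the controls in every cTKO library of both regions, and in the neocortex it was the only isoform whose difference passed the test across all genes. In control neocortex the 5 libraries stood at 1738, 1608, 1655, 1602 and 1527 CPM, and in cTKO neocortex at 1242, 1303, 1323, 1219 and 1331 CPM. All 5 cTKO libraries lay below the lowest control. Control libraries averaged 1626 ± 77.4 CPM and cTKO libraries 1284 ± 50.2 CPM (SD, n = 5). The log2 fold change was -0.34 (SE 0.054, 95% confidence interval -0.45 to -0.22, FDR 0.0294 by edgeR's quasi-likelihood test over 13843 genes). Among all genes tested there, 0.188% passed this FDR of 0.05, against 1 of the 8 isoforms. The exact permutation test of log2 CPM gave 0.00794, the smallest p that 5 libraries against 5 can give.

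Prkcb encodes the beta isoform, which is known for its role in fear memory. In control hippocampus it stood at 1267, 1176, 1296, 1322 and 1438 CPM, and in cTKO hippocampus at 910, 815, 1152, 941 and 1105 CPM. Every cTKO library again lay below every control, by the margin between 1152 and 1176 CPM. The means were 1300 ± 94.9 and 984 ± 140 CPM, and the log2 fold change was -0.40 (SE 0.094, 95% confidence interval -0.60 to -0.19, FDR 0.0993). The quasi-likelihood test, which called 0.489% of all genes in the hippocampus, did not call it, while the exact permutation p was 0.00794. edgeR's exact test called Prkcb in the hippocampus at an FDR of 0.0139 and DESeq2 at 0.0041, and both called it in the neocortex. These tests called 1.88% and 2.42% of all genes there, and 1.21% and 1.6% in the neocortex.

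The study itself, with edgeR, listed Prkcb as lower in both regions at an FDR under 0.05, and reported the same direction by qRT-PCR in other mice. Prkcb was not among the genes that the study names as not significant by qRT-PCR. Here the direction of Prkcb held in each alternative in both regions, but its call did not. In the neocortex the log2 fold change stayed between -0.36 and -0.31 when any library was left out, while the FDR ranged from 0.0102 to 0.104. It stayed under 0.05 only without cTKO library 3 (0.0128) or cTKO library 5 (0.0102), the library with embryonic markers, and went above 0.05 without any of control libraries 1 (0.0865), 2 (0.104), 3 (0.0879), 4 (0.0968) and 5 (0.0535) or of cTKO libraries 1 (0.0656), 2 (0.0768) and 4 (0.0633). In the hippocampus the FDR without a library ranged from 0.0537 to 0.231, and was 0.146 without cTKO library 4. Without overlap, 2.39% of all genes separated the genotypes in the neocortex and 3.01% in the hippocampus, and 0.156% of genes tested in both lay below control without overlap in both, as Prkcb did.

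**Figure D2:**
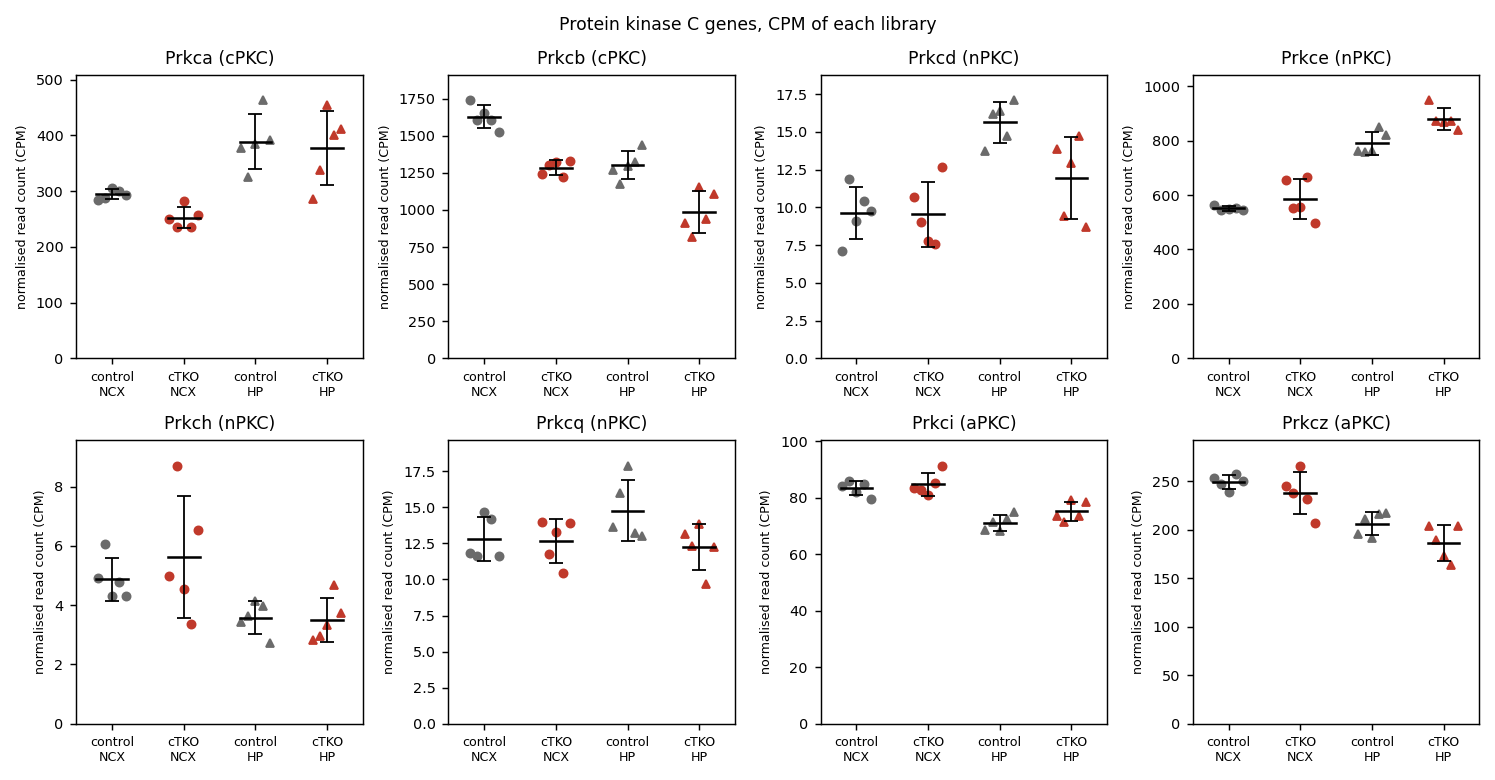
CPM of each isoform in each of the 20 libraries, grouped by genotype and region (grey, control, and red, cTKO, with circles for NCX and triangles for HP; lines are means and bars SD, n = 5). The cTKO libraries of Prkcb lie below the controls in both regions, at 1219 to 1331 against 1527 to 1738 CPM in NCX and at 815 to 1152 against 1176 to 1438 CPM in HP.

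Prkca, the alpha isoform, is found in many tissues. In control neocortex it stood at 285, 287, 306, 301 and 293 CPM, and in cTKO neocortex at 249, 236, 282, 236 and 258 CPM. The highest cTKO library lay just under the lowest control. The log2 fold change was -0.22 (SE 0.060, 95% confidence interval -0.35 to -0.089, p = 0.00277), which did not pass the adjusted threshold (FDR 0.189), with an exact permutation p of 0.00794. DESeq2 called it at an FDR of 0.0260, and so did the quasi-likelihood test without cTKO library 3 (0.0340). In the hippocampus the genotypes overlapped throughout, from 326 to 463 CPM in controls and from 286 to 455 CPM in cTKO, with a log2 fold change of -0.035 (95% confidence interval -0.30 to 0.23).

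The nPKC isoforms gave no call between genotypes. Prkce, the epsilon isoform of nerve terminals and the abundant member of this class, stood at 565, 546, 550, 551 and 543 CPM in control neocortex and at 656, 551, 554, 667 and 497 CPM in cTKO neocortex. The log2 fold change was 0.092 (95% confidence interval -0.070 to 0.25). The 1 cTKO library below all controls, at 497 CPM, was library 5, which carried the embryonic markers, and without it the log2 fold change was 0.14 (FDR 0.414), and the unadjusted p of the quasi-likelihood test, across all genes, passed under 0.05. With any 1 library left out it ranged from 0.039 to 0.14. In the hippocampus Prkce stood at 760, 757, 762, 848 and 819 CPM in controls and at 948, 873, 868, 873 and 838 CPM in cTKO. There 4 of the 5 cTKO libraries were above the highest control (log2 fold change 0.16, SE 0.059, 95% confidence interval 0.035 to 0.29, p = 0.0163, FDR 0.293, exact permutation p = 0.0159).

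Prkcd encodes the delta isoform, which in the forebrain is best known from thalamic and amygdala neurons. It stood at 13.7, 16.2, 16.4, 14.7 and 17.1 CPM in control hippocampus and at 13.9, 9.41, 12.9, 14.7 and 8.70 CPM in cTKO hippocampus, where 2 libraries reached the control range and 3 lay below it (log2 fold change -0.38, SE 0.15, 95% confidence interval -0.70 to -0.068, p = 0.0210, FDR 0.320, exact permutation p = 0.0317). In the neocortex the genotypes covered the same range, 7.14 to 11.9 CPM in controls and 7.54 to 12.7 CPM in cTKO (log2 fold change -0.011, 95% confidence interval -0.37 to 0.35).

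Prkcq, the theta isoform known from T cell signalling, stood at 13.0 to 17.9 CPM in control hippocampus and at 9.65 to 13.9 CPM in cTKO hippocampus (log2 fold change -0.26, p = 0.0484, FDR 0.411, exact permutation p = 0.0635). In the neocortex it stood at 11.6 to 14.7 CPM in controls and at 10.4 to 14.0 CPM in cTKO, and its log2 fold change was -0.0043 (95% confidence interval -0.24 to 0.23). Prkch, the eta isoform and the lowest of the 8, ranged from 3.38 to 8.71 CPM in cTKO neocortex and from 4.30 to 6.08 CPM in the controls (log2 fold change 0.21, 95% confidence interval -0.27 to 0.69). Its interval is the widest of the 8 there and leaves room for a difference of either sign. In the hippocampus Prkch stood at 2.73 to 4.16 CPM in controls and at 2.84 to 4.68 CPM in cTKO (log2 fold change -0.028, 95% confidence interval -0.42 to 0.36).

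The atypical isoforms also gave no call between genotypes. Prkci, the iota isoform of the Par polarity complex, stood at 79.7 to 85.8 CPM in control neocortex and at 81.0 to 91.4 CPM in cTKO neocortex (log2 fold change 0.030, 95% confidence interval -0.084 to 0.14). In the hippocampus it stood at 68.1 to 75.1 and at 71.5 to 79.2 CPM (log2 fold change 0.087, 95% confidence interval -0.029 to 0.20). Prkcz, the zeta isoform, stood at 239 to 257 CPM in control neocortex and at 207 to 266 CPM in cTKO neocortex (log2 fold change -0.063, 95% confidence interval -0.20 to 0.074). In the hippocampus it stood at 192 to 217 and at 163 to 204 CPM (log2 fold change -0.14, 95% confidence interval -0.30 to 0.015, FDR 0.469).

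Without neocortex library 5, the genotype differences in the neocortex stayed on the same side of the threshold. On the log2 scale, Prkca stood at -0.23 (FDR 0.136), Prkcd at -0.13, Prkch at 0.15, Prkcq at -0.038, Prkci at 0.0011 and Prkcz at -0.018, with Prkcb and Prkce as given above. Without hippocampus library 4, the differences in the hippocampus were -0.38 for Prkcb (FDR 0.146), -0.060 for Prkca, 0.16 for Prkce and -0.47 for Prkcd (FDR 0.200). They were -0.19 for Prkcq, -0.16 for Prkch, 0.091 for Prkci and -0.100 for Prkcz. Of the 8, 0 were called in the hippocampus without this library, and Prkcq no longer passed the unadjusted threshold of 0.05.

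Counted over the 8 isoforms, the unadjusted p was under 0.05 for 2 in the neocortex (Prkcb and Prkca) and for 4 in the hippocampus (Prkcb, Prkce, Prkcd and Prkcq). The same held for 10.4% of all genes in the neocortex and 12% in the hippocampus. Over the 8 isoforms the log2 fold changes had a median of -0.0075 in neocortex and -0.088 in hippocampus, beside 0.0062 and 0.0049 over all genes tested.

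Whether an isoform's genotype difference itself differed between the regions was tested by the region by genotype interaction in all 20 libraries. The quasi-likelihood test called it for 0 of the 8, of which 0 had an unadjusted p under 0.05, and DESeq2 also called 0. Of 14192 genes, 0.0564% were called. The fit held no term for the mouse, so its intervals do not use any pairing of the regions. For Prkcb the hippocampal minus the neocortical log2 fold change was -0.055 (95% confidence interval -0.28 to 0.17). The largest difference in size was that of Prkcd, -0.37 (95% confidence interval -0.84 to 0.11), and those of Prkcq and Prkca were -0.25 (95% confidence interval -0.60 to 0.086) and 0.19 (95% confidence interval -0.11 to 0.48). A difference between regions in how these genes responded was thus not detected at this number of libraries, and the intervals do not exclude one.

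**Figure D3:**
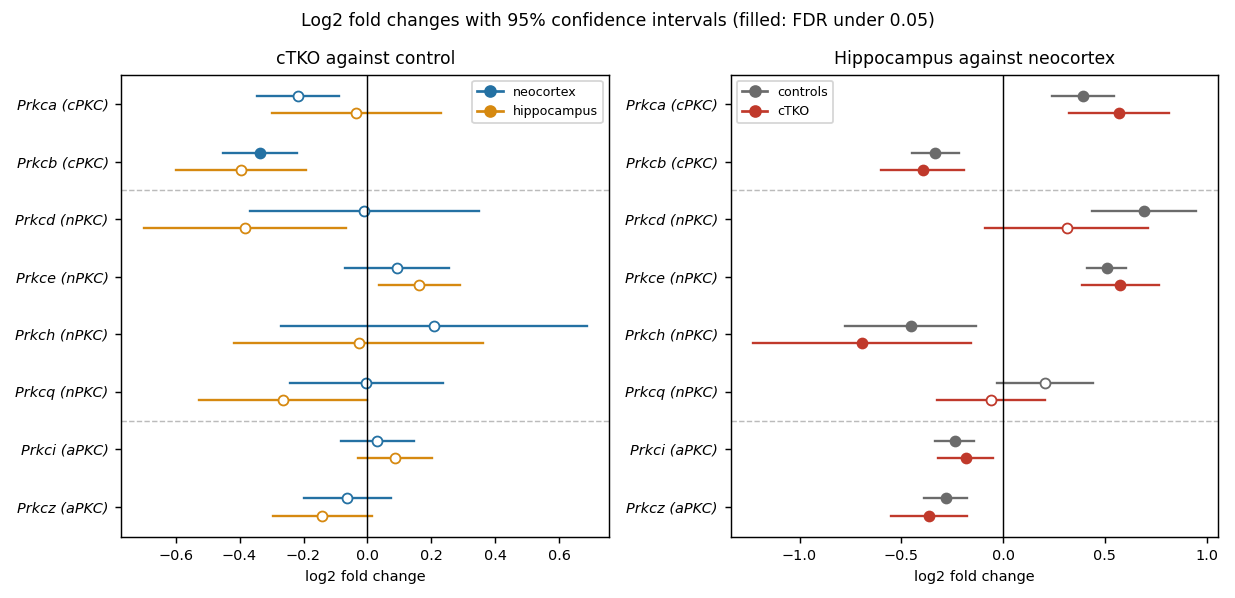
Log2 fold changes of the 8 isoforms, cTKO against control in each region (left) and hippocampus against neocortex in each genotype (right). Points are edgeR estimates, lines are 95% confidence intervals and filled points have an FDR under 0.05. On the left only Prkcb in the neocortex is filled, at -0.34. On the right Prkca and Prkce lie above 0 and Prkcb, Prkch, Prkci and Prkcz below 0 in both genotypes.

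In both regions every cTKO library had a lower share of Prkcb and a higher share of Prkce and of Prkci among the 8 isoforms than every control. Prkcb made up 54.7% to 57.4% of the summed CPM per kb in control neocortex and 47.9% to 53.5% in cTKO neocortex. In the hippocampus its share was 43.9% to 47.3% in controls and 34.2% to 41.0% in cTKO. The share of Prkce was 19.7% to 20.5% in control neocortex and 21.0% to 27.6% in cTKO neocortex, and 28.4% to 30.1% and 32.5% to 39.4% in the hippocampus. That of Prkci was 3.84% to 4.11% and 4.28% to 5.06% in the neocortex, and 3.32% to 3.71% and 3.89% to 4.14% in the hippocampus. For each of these 3 isoforms the exact permutation p of the share was 0.00794 in both regions. The shares of the other 5 overlapped between the genotypes. Shares sum to 100%, so a lower share of 1 isoform raises those of the rest. The summed level itself was 365 to 395 CPM per kb in control and 325 to 341 in cTKO neocortex, and 346 to 398 and 311 to 367 in the hippocampus.

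More isoforms passed the test between regions than between genotypes. In controls 7 of the 8 passed the test between hippocampus and neocortex, where 59% of all genes passed, and in cTKO 6 of the 8, where 41.3% passed. With the library number as a block 7 were called in controls and 4 in cTKO, where Prkch and Prkci lost their call. The labels do not say which libraries of the 2 regions came from 1 mouse. The groups of 7 isoforms did not overlap between regions in controls and those of 5 in cTKO, as against 44% and 28.6% of all genes. A region difference was thus shared by much of the transcriptome. The region comparisons use the same libraries as the genotype comparisons. The neocortex and hippocampus RNA was also extracted with different kits, so region and kit cannot be told apart.

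The conventional isoforms went opposite ways between regions. Prkcb was lower in the hippocampus, with a log2 fold change of -0.33 (SE 0.054, FDR 8.77e-05) in controls and -0.40 (SE 0.094, FDR 0.00491) in cTKO. Prkca was higher, with 389 ± 48.9 CPM in control hippocampus against 295 ± 8.96 in control neocortex, a log2 fold change of 0.39 (SE 0.072, FDR 0.000248). In cTKO it was 0.57 (SE 0.11, FDR 0.00162).

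Of the nPKC isoforms, Prkce was higher in the hippocampus in every library, with a log2 fold change of 0.51 (SE 0.046, FDR 1.85e-07) in controls and 0.58 (SE 0.088, FDR 0.000222) in cTKO. Prkcd gave the largest region difference in controls, 15.6 ± 1.37 CPM in the hippocampus against 9.64 ± 1.74 in the neocortex (log2 fold change 0.69, SE 0.12, FDR 0.000149). In cTKO its log2 fold change was 0.31 (95% confidence interval -0.089 to 0.71, FDR 0.201) and the regions overlapped. Summed thalamic markers were lower in the hippocampal libraries (92.4 to 130 CPM) than in the neocortical ones (173 to 231 CPM). Rora had the highest mean of these markers in controls, at 116 CPM in the neocortex and 49.8 CPM in the hippocampus. Ntng1 stood at 41.5 and 44.6 CPM there, and Tcf7l2 at 6.98 and 6.52 CPM. Of 5 thalamic markers tested between regions in controls, 3 were called lower in the hippocampus and 0 higher. The part of thalamic tissue in the region difference of Prkcd was not tested. Prkch was lower in the hippocampus, with a log2 fold change of -0.45 (FDR 0.0171) in controls and -0.69 (FDR 0.0388) in cTKO. Leaving out control neocortex library 2 took the FDR of Prkch in controls to 0.0588. In cTKO the libraries of the 2 regions overlapped (exact permutation p = 0.0556), and the FDR went above 0.05 without hippocampus library 1 (0.0856), 2 (0.0836), 3 (0.0717) or 5 (0.0588) or without neocortex library 2 (0.121) or 5 (0.0722). With the library number as a block it was 0.0731. Prkcq was not called in either genotype, with log2 fold changes of 0.21 (95% confidence interval -0.031 to 0.44) in controls and -0.060 (95% confidence interval -0.33 to 0.21) in cTKO.

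Both atypical isoforms were lower in the hippocampus. Prkci had a log2 fold change of -0.24 (SE 0.045, FDR 0.000331) in controls and -0.18 (SE 0.062, FDR 0.0310) in cTKO, and Prkcz -0.28 (SE 0.048, FDR 0.000133) and -0.36 (SE 0.086, FDR 0.00485). The call of Prkci in cTKO was lost without hippocampus library 1 (FDR 0.0572), 2 (0.0725) or 4 (0.0632) or neocortex library 2 (0.0511), 4 (0.0598) or 5 (0.0709), and with the library number as a block (0.0546). Without both libraries that carried embryonic markers, it was -0.15 with an FDR of 0.124.

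In bulk tissue, fewer cells of a type and less RNA per cell cannot be told apart, so marker levels are given beside these results. Of 6 excitatory neuron markers, 0 passed the quasi-likelihood test between genotypes in either region. Their sum was 7499 to 8301 CPM in control and 6667 to 7872 CPM in cTKO neocortex, and 9298 to 10652 and 8189 to 10134 CPM in the hippocampus. Most of that sum was Camk2a, the gene whose promoter drives the Cre, at a mean of 5894 CPM in control and 4705 CPM in cTKO neocortex, whereas the glutamate transporter Slc17a7 stood at 1515 and 1746 CPM. The summed interneuron markers were 891 to 1023 CPM in control and 914 to 1192 CPM in cTKO neocortex, and 718 to 905 and 794 to 1021 CPM in the hippocampus. Of 4 CA1 pyramidal cell markers, 1, Wfs1, was called higher in cTKO neocortex (log2 fold change 0.94, FDR 0.0329), and the sum was 229 to 270 CPM in controls and 283 to 565 CPM in cTKO, without overlap. Most of that sum was Wfs1, at a mean of 189 CPM in control and 360 CPM in cTKO neocortex. Fibcd1 stood there at 11.4 and 9.45 CPM, Man1a at 24.4 and 28.8 CPM and Pou3f1 at 28.4 and 30.4 CPM. Striatal markers summed to 340 to 491 CPM in control and 373 to 680 CPM in cTKO neocortex, and to 85.5 to 111 and 88.3 to 146 CPM in the hippocampus. Of the 6 striatal markers, 1, the dopamine receptor gene Drd1, was called higher in cTKO hippocampus, at 12.8 to 22.7 CPM against 4.37 to 5.10 CPM in controls (log2 fold change 1.92, FDR 3.31e-05), and in the interaction (FDR 0.00444). In the hippocampus, astrocyte markers summed to 1891 to 2399 CPM in controls and to 4753 CPM in cTKO library 4, the library with embryonic markers. The other cTKO libraries stood at 1863 to 3117 CPM. Of these 5 markers, 0 were called between genotypes there. Gfap had a mean of 427 CPM in control and 1268 CPM in cTKO hippocampus, and Aqp4 of 226 and 301 CPM. Slc1a3 stood at 1045 and 909 CPM, Gja1 at 350 and 312 CPM and Aldh1l1 at 48.1 and 48.5 CPM. Choroid plexus markers summed to 2615 CPM in control library 3, to 81.2 to 483 CPM in the other controls and to 119 to 590 CPM in cTKO. Of the 5 oligodendrocyte, 5 microglia and 4 endothelial markers, 0 were called between genotypes in either region. The part of these markers in the isoform results was not tested.

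The genes whose pattern over the 20 libraries lay closest to that of Prkcb were Hivep2, Zfhx2 and Usp54. The measure is the root mean square difference of log2 CPM after each gene was centred on its own mean, and these 3 lay at 0.127, 0.133 and 0.135 from Prkcb, against a median of 0.379 over 14192 genes. Hivep2, a transcription factor gene, had mean levels of 497 and 404 CPM in control and cTKO neocortex and of 362 and 338 CPM in the hippocampus. For Prkcd, the isoform with the largest region difference in controls, the nearest were Nxn, Pacrgl and Bet1, at 0.221, 0.222 and 0.224, against a median of 0.443. All 20 libraries and their depths are shared by the genes compared.

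The wider pathway was followed through 63 genes in 6 lists that surround protein kinase C. Of these, 62 were tested between genotypes in the neocortex and 61 in the hippocampus, and the quasi-likelihood test called 0 in either region. With an unadjusted p under 0.05 there were 17 in the neocortex (27.4%, beside 10.4% of all genes), 13 of them lower in cTKO, and 11 in the hippocampus (18%, beside 12% of all genes), 5 of them lower. DESeq2 called 5 in the neocortex and 1 in the hippocampus, where it called 1.6% and 2.42% of all genes. edgeR's exact test called 3 and 0, beside 1.21% and 1.88% of all genes. The log2 fold changes of all list genes tested had a median of -0.039 in neocortex and -0.014 in hippocampus.

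Upstream of the kinases, the list of Gq alpha subunits and phospholipases C had a median log2 fold change of -0.19 over 14 genes in the neocortex, beside 0.0062 over all genes. Of the 14, 7 passed the unadjusted threshold, all lower in cTKO, beside 10.4% of all genes. Its smallest p values belonged to the phospholipases Plcd3, at 16.0 ± 0.589 CPM in control and 10.1 ± 2.05 CPM in cTKO neocortex (log2 fold change -0.65, FDR 0.0572), and Plcb4, at 70.9 ± 7.43 and 52.4 ± 5.75 CPM (log2 fold change -0.43, FDR 0.0626). In the hippocampus 4 of the 14 passed it, 1 higher and 3 lower, beside 12% of all genes. The median of this list there was -0.067, and Plcd3 again had the smallest p of the list (log2 fold change -0.49, FDR 0.196). Diacylglycerol kinases end the signal by converting diacylglycerol to phosphatidic acid. Dgkz stood at 582 ± 38.7 CPM in control and 456 ± 61.0 CPM in cTKO neocortex (log2 fold change -0.35, FDR 0.134), and Dgkb was 0.21 higher in cTKO hippocampus on the log2 scale (FDR 0.230). The medians of the 9 kinases were -0.081 and 0.051.

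Other proteins bind diacylglycerol without being protein kinase C isoforms. Among 12 of them, Rasgrp1, an activator of Ras, stood at 742 ± 67.1 CPM in control and 868 ± 22.7 CPM in cTKO hippocampus (log2 fold change 0.23, FDR 0.196), and the Rac regulator Chn2 had a log2 fold change of 0.29 there (FDR 0.228). The medians of this list were 0.038 in the neocortex and -0.0091 in the hippocampus. Of the partners of atypical isoforms, Wwc1, known as KIBRA, stood at 91.8 ± 4.49 CPM in control and 77.0 ± 5.94 CPM in cTKO neocortex (log2 fold change -0.25, FDR 0.166), and the medians of the 9 partners were 0.040 and 0.061. The 8 counted genes for priming, dephosphorylation and anchoring had medians of -0.028 and -0.057. The 10 substrates had medians of 0.017 and 0.0023, and in each region 1 substrate passed the unadjusted threshold.

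**Figure D4:**
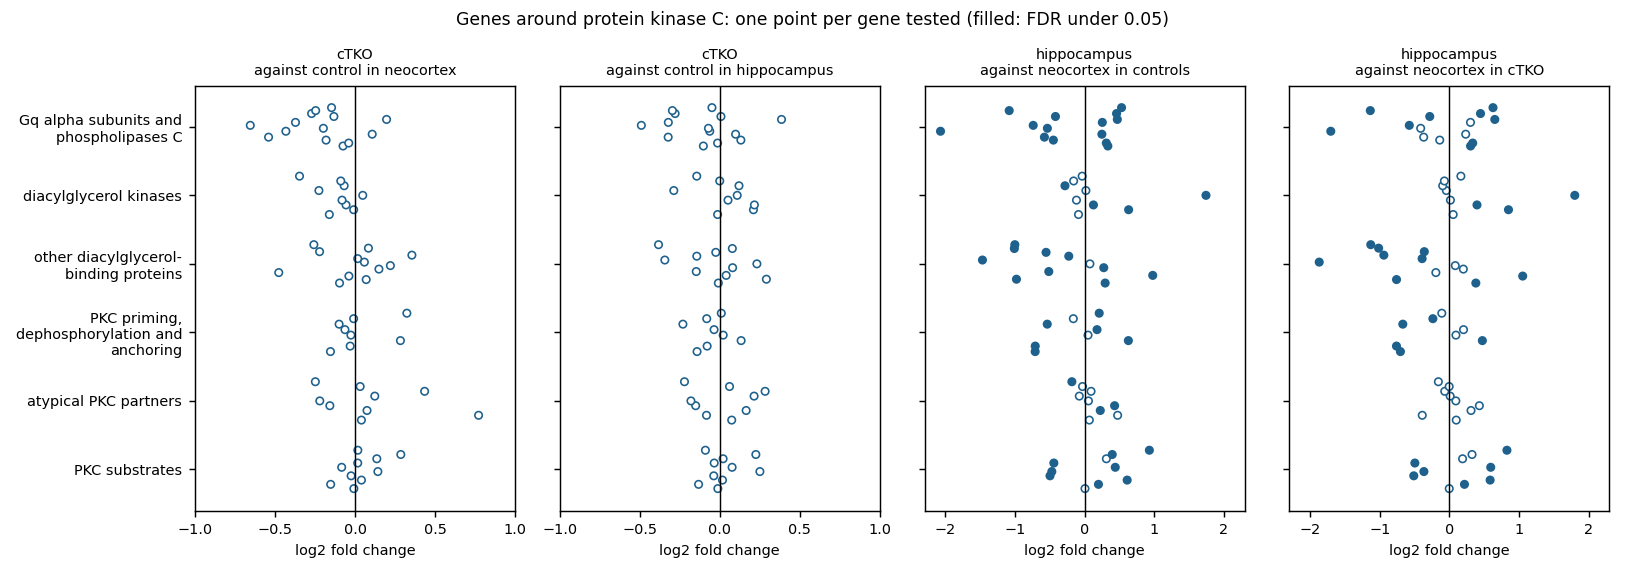
Log2 fold changes of the genes around protein kinase C by list (rows) in the 4 comparisons (columns), with 1 point per gene tested and filled points for an FDR under 0.05. No point is filled in the genotype comparisons, and 45 of 61 and 33 of 62 are filled between regions.

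Between regions, 45 of 61 list genes passed the test in controls (73.8%, 23 higher and 22 lower in the hippocampus) and 33 of 62 in cTKO (53.2%, 15 higher and 18 lower), beside 59% and 41.3% of all genes. By list, those called in controls were 14 of the 14 Gq and phospholipase C genes tested, 4 of the 9 diacylglycerol kinases, 10 of the 11 other diacylglycerol-binding genes tested, 6 of the 8 priming and anchoring genes, 3 of the 9 partners and 8 of the 10 substrates. The largest differences in controls were those of Plcb4 (log2 fold change -2.07), the Rap activator gene Rasgrp2 (-1.47) and Plch1 (-1.08), which were lower in the hippocampus, and those of Dgkg (1.74), the protein kinase D gene Prkd1 (0.98) and the phosphatase inhibitor gene Ppp1r14c (0.93), which were higher. In cTKO they were Rasgrp2 (-1.87), Plcb4 (-1.70) and Plch1 (-1.14), and Dgkg (1.80), Prkd1 (1.05) and Dgkb (0.85). The interaction called 0 of 63 list genes by the quasi-likelihood test, and 4 had an unadjusted p under 0.05.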

How the data were processed

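Total RNA from the neocortex and the hippocampus was sequenced after poly-A selection in single-end reads of 100 bases. The authors aligned the reads with STAR 2.5.4a to the mm10 genome, counted them with HTSeq and deposited 1 table of raw counts by gene symbol per library. The annotation and the strand setting of the counting, and which of the authors' sequencers read which library, are not given in the sources used here. All 20 count columns were mapped to a group by their labels, and 0 were left out. Within each group, no pair of libraries was identical or differed by less than sampling noise. Pairs across groups were not compared.

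Counts were analysed with edgeR 4.0.16 in R 4.3.3. The filter kept genes whose CPM exceeded 1 in 5 or more of the 10 libraries compared, libraries were scaled by TMM, and groups were compared with the quasi-likelihood test, with Benjamini-Hochberg adjustment over all genes tested and an FDR threshold of 0.05. The interaction was fitted in all 20 libraries. Log2 CPM used a prior count of 2, and exact permutation tests were two-sided over 252 splits. Exon lengths and positions are from GENCODE vM21 and promoter windows from RefSeq. A floor of 3 counts corresponds to 0.118 to 0.247 CPM and covers counting error only.

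The labels do not say that a library number marks a mouse. Between regions in controls, same-numbered libraries deviated together in 5 of 5 pairs (correlations of 0.129 to 0.334), so the numbers pair the samples there, and the block changed no call. In the other comparisons they did not in every pair. By the Xist level, same-numbered libraries of the regions fell in the same class for 5 of 5 numbers in each genotype. The region differences are those of the fit without the block, except where the block is named. P-values measure the spread between these libraries.

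Members, gene lists, motifs and tests were chosen with earlier results of these data known. Named genes are the 8 isoforms, the 3 deleted genes, list genes with the 4 smallest p per genotype comparison or the 3 largest differences per direction and region comparison, and the 3 nearest genes of 2 isoforms. Marker genes and Apoh are named outside this rule, as checks chosen after their values were seen. Rack1 and Cavin3 were matched under their older symbols Gnb2l1 and Prkcdbp. Alternatives were DESeq2 1.42.0, edgeR's exact and likelihood ratio tests, a robust fit, DESeq2 size factors, 3 other filters, a joint fit of the 20 libraries, a block for the library number, a covariate for the Xist level and the removal of each library. The procedures were tested on simulated data. Figures were drawn with matplotlib 3.10.9.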

Additional observations from a re-analysis of the deposited data

How the results depend on the processing

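Of the 8 isoforms, 1 was called between genotypes in the neocortex, 2 with DESeq2, and 0 in one fit of all 20 libraries and with the replicate block. In these 2 fits the log2 fold change of Prkcb was -0.34 with an FDR of 0.0875 and 0.0804. Leaving out 1 library gave 0 to 2 calls. In the hippocampus 0 were called, and 1, Prkcb, with DESeq2, with edgeR's exact and likelihood ratio tests and in one fit of all libraries. For the list genes in the neocortex, 0 calls became 5 with DESeq2, 3 with the exact test, 3 with the likelihood ratio test, 2 without a filter and 1 with Xist as a covariate, and 0 to 2 with 1 library left out. In the hippocampus DESeq2 called 1. Between regions, 6 to 7 isoforms were called in controls and 4 to 6 in cTKO with 1 library left out, and the block, with 7 and 4 calls, lost Prkch (FDR 0.0731) and Prkci (0.0546) in cTKO. The same-numbered libraries did not deviate together in every pair in the genotype comparisons (correlations of -0.0092 to 0.221 in the neocortex and -0.137 to 0.140 in the hippocampus) or between regions in cTKO (-0.071 to 0.396). The interaction called 0 isoforms in every alternative run. The share of Prkcb in control neocortex, 55.9%, was 57.4% without a length and 69.5% with the basic transcript set, an alternative added after seeing the data, as was leaving out both libraries with embryonic markers. With 1 library left out it ranged from 55.6% to 56.2%. Exact permutation tests gave a p under 0.05 in 17 of 32 comparisons, and in 16 to 18 under the alternatives. Between genotypes these were Prkcb in both regions, Prkca in the neocortex and Prkce and Prkcd in the hippocampus. The rest were region differences, and the share of all genes under 0.05 by the permutation test was not computed.

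Signs turned only for differences that were not called. With 1 library left out, the log2 fold change between genotypes in the neocortex ranged from -0.13 to 0.079 for Prkcd, from -0.042 to 0.057 for Prkcq and from -0.010 to 0.35 for Prkch. In the hippocampus it ranged from -0.11 to 0.048 for Prkca and from -0.16 to 0.037 for Prkch. The region difference of Prkcq in cTKO ranged from -0.12 to 0.015 and was 0.046 without both libraries with embryonic markers, and the interaction of Prkcb ranged from -0.12 to 0.0046. The cause of these changes was not tested. Depth limits Prkch most, with 52 to 178 counts per library.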
